A study of Nannochloropsis oceanica strain IMET1 with 15 samples.

Results

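NO10G00370, NO10G00380 and NO10G00390 are 3 neighbouring genes of *Nannochloropsis oceanica*, a small oil-rich marine alga, and lie side by side on chromosome 10. They are 3 of 10493 genes in the expression matrix of the study. They were picked because their levels differ between the lines described here, so the values of the 3 genes are given as a description, any call of them in the fit across all genes is no independent evidence, and the genes next to them on both sides serve as a control. The gene order and the positions come from the tables of the single libraries. They are taken to be on the study's IMET1v2 genome, which those tables do not name.

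Expression was measured by RNA-seq in 15 libraries from cultures of strain IMET1, collected on day 7 under high light, with 3 biological replicates for each of 5 groups. M1 and M2 are lines with a CRISPR–Cas9 knockout of NO08G00280, a putative methyltransferase for N6-methyladenine (6mA) in DNA. M3 and M4 are knockout lines of NO06G02500, a candidate 6mA demethylase. The sample titles begin with the same code for M1 and M2 but with different codes for M3 and M4. They do not say what the codes mean. The WT is the same strain without an edit. Each line is 1 clone, grown after transformation and drug selection that the WT did not go through, so an effect of the knockout cannot be told apart from any other difference of that clone from the WT, and the clones of 1 knockout are the only check on it.

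NO10G00370 is described as 5-formyltetrahydrofolate cycloligase. Folates are the carriers of single carbon units in the cell, which are used in the synthesis of purines and thymidylate, in the interconversion of glycine and serine and in the supply of methyl groups through methionine and S-adenosylmethionine, the methyl donor of DNA methyltransferases. 5-Formyltetrahydrofolate is a storage form that does not itself donate its carbon unit, and the cycloligase uses ATP to return it to the active pool as 5,10-methenyltetrahydrofolate. NO10G00380 and NO10G00390 carry no description in the sources used here, and nothing is said of what they encode.

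The 3 genes take up a compact stretch. NO10G00370 lies on the + strand of chromosome 10 from 130548 to 135092 (4545 bases). NO10G00380 lies on the - strand from 134911 to 135606 (696 bases), tail to tail with NO10G00370, and the last 182 bases of each gene are shared. The shared part is 26.1% of NO10G00380 and 4.0% of NO10G00370, and it leaves 514 bases of NO10G00380 outside. NO10G00390 lies on the - strand from 135694 to 136356 (663 bases), 87 bases from NO10G00380, and overlaps no other gene. On the other side, NO10G00360 (- strand, 127670 to 131906) runs head to head into NO10G00370 and shares 1359 bases with it, which is 32.1% of NO10G00360 and 29.9% of NO10G00370. The library kit named in the study's methods does not mark the strand, so the strand of a read does not tell these genes apart in the shared bases. Such overlap is common in this genome, where 23.4% of genes overlap another in position.

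**Figure D1:**
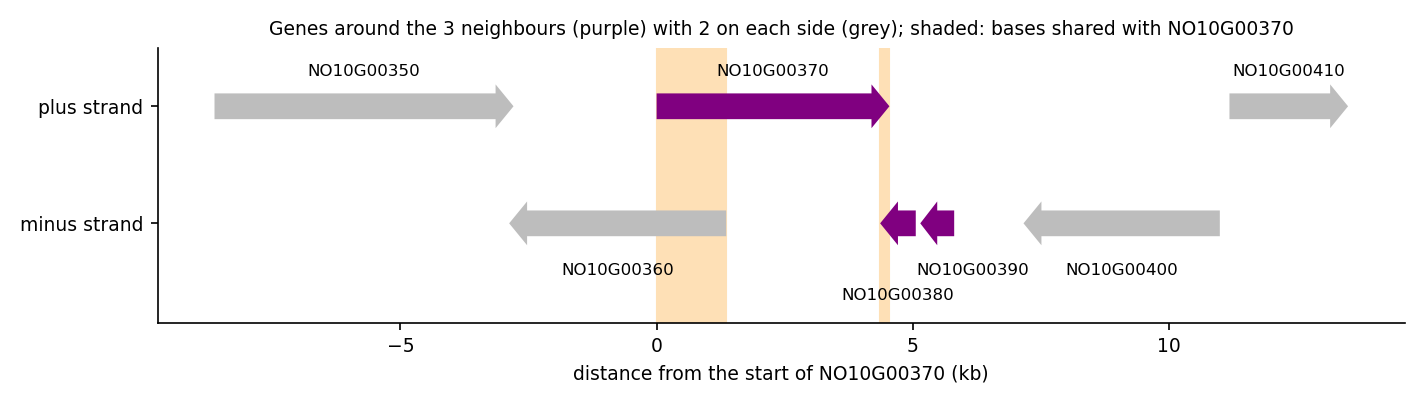
Map of the stretch drawn to scale, with the distance from the left end of NO10G00370 in kb on the x axis and genes on the + and - strand on separate rows. NO10G00370 shares 182 bases with NO10G00380 and 1359 bases with NO10G00360, while NO10G00390 is free of overlap and lies 1352 bases from NO10G00400.

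The levels below are TMM-normalized TPM, which corrects for gene length and for library size. NO10G00370 had 257.9, 183.7 and 114.3 TMM-normalized TPM in the 3 libraries of M1 and 95.5, 76.4 and 101.5 in those of M2, against 329.0, 446.0 and 366.2 in the WT. In M3 it had 49.6, 36.3 and 30.9, and in M4 it had 488.0, 510.8 and 488.7. Every library of M1, M2 and M3 was thus below the lowest WT library, and every library of M4 was above the highest one.

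NO10G00380 had 432.1, 322.3 and 226.6 TMM-normalized TPM in M1, 161.6, 145.2 and 167.7 in M2, 63.4, 44.6 and 36.8 in M3 and 817.7, 849.1 and 961.2 in M4, against 582.3, 821.5 and 704.2 in the WT. M1, M2 and M3 again lay below all WT libraries, but M4 and the WT overlapped. NO10G00390 had 417.0, 364.3 and 260.3 in M1, 104.5, 161.1 and 164.8 in M2, 63.2, 33.3 and 54.3 in M3 and 800.4, 488.3 and 957.3 in M4, against 637.5, 877.9 and 721.9 in the WT. The same groups were low in this gene, and M4 spread on both sides of the WT. As background, all 3 libraries were lower than all 3 WT libraries in 11.0% of the 9440 genes tested in M1, 26.6% in M2 and 12.3% in M3, and all 3 were higher in 13.7% in M4. The 3 genes were chosen with these values known, so nothing is read from their count against these shares.

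**Figure D2:**
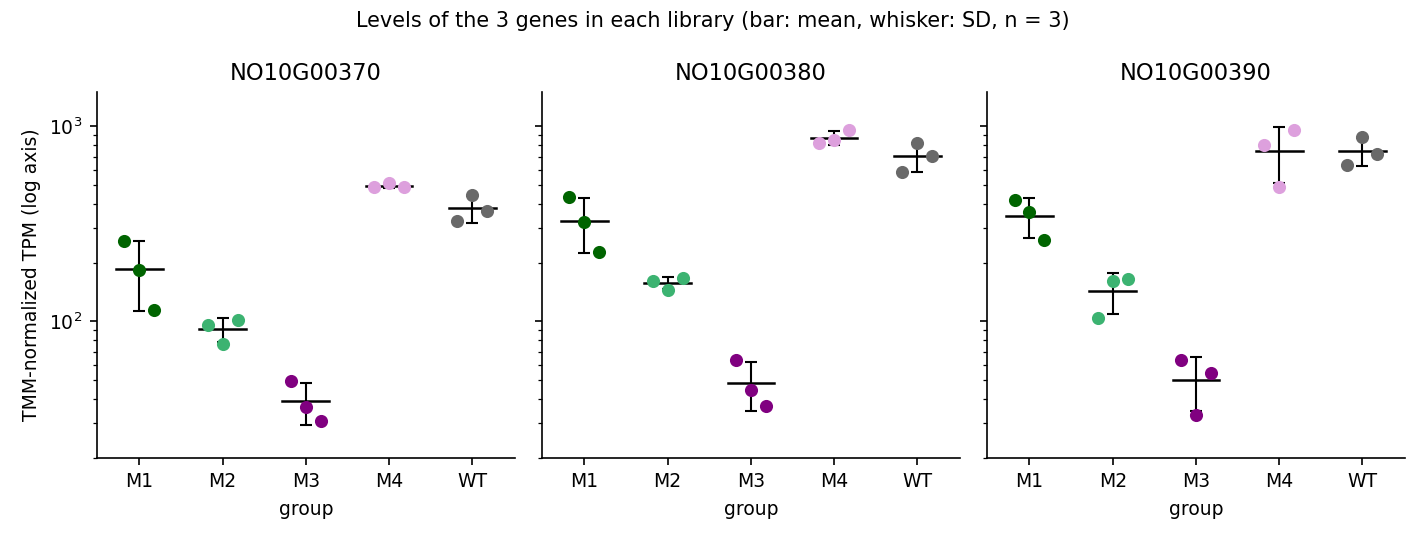
TMM-normalized TPM (log axis) of NO10G00370, NO10G00380 and NO10G00390 in the 3 libraries of M1, M2, M3, M4 and the WT, with points for libraries and bars for the mean ± SD of a group. In all 3 genes M3 lies lowest, at 30.9 to 63.4, and M1 and M2 lie between M3 and the WT.

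Averaged over replicates, NO10G00370 stood at 185 ± 71.8 TMM-normalized TPM in M1 and 91.2 ± 13.1 in M2, at 38.9 ± 9.64 in M3 and at 495.8 ± 12.9 in M4, against 380.4 ± 59.8 in the WT (SD, n = 3 each). These means are 48.7%, 24.0%, 10.2% and 130.3% of the WT mean in M1, M2, M3 and M4. NO10G00380 averaged 327 ± 103 in M1 and 158 ± 11.7 in M2, with 48.3 ± 13.7 in M3 and 876 ± 75.4 in M4, against 703 ± 120 in the WT, or 46.5%, 22.5%, 6.87% and 124.7% of the WT. NO10G00390 averaged 347 ± 79.8 in M1 and 143.5 ± 33.8 in M2, with 50.3 ± 15.4 in M3 and 749 ± 239 in M4, against 746 ± 122 in the WT, or 46.6%, 19.2%, 6.74% and 100.4% of the WT. The undescribed genes were thus close in level to each other in each group and lay above NO10G00370, the gene with the folate description, on this per-length scale.

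By mean, all 3 genes put the groups in the order M4, WT, M1, M2 and M3, from high to low. In NO10G00390, however, M4 and the WT were nearly equal (means 748.7 and 745.8), and on the log2 scale M4 was lower by 0.04. Groups next to each other in this order did not overlap in any of the 3 genes, except M4 and the WT, which overlapped in NO10G00380 and NO10G00390. The narrowest gap was between M1 and M2 in NO10G00370, where the lowest M1 library had 114.3 and the highest M2 library had 101.5 TMM-normalized TPM. The clones of 1 knockout thus did not overlap in these genes. How many of all tested genes show no overlap between lines was not counted. Calls by limma at an adjusted p under 0.05 were common, at 25.9% of tested genes in M2 against M1 and 25.6% in M4 against M3. The 3 genes were chosen with these values known, so nothing is read from the gaps. M2 lay below M1, both NO08G00280-knockout lines, with a ratio of the M1 mean to the M2 mean of 2.03 for NO10G00370, 2.07 for NO10G00380 and 2.42 for NO10G00390. M4 and M3, both NO06G02500-knockout lines, lay at opposite ends of the order.

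On the scale of log2(value + 1), on which the fits were made, the log2-fold changes of NO10G00370, NO10G00380 and NO10G00390 were -1.10, -1.14 and -1.12 in M1 against the WT. In M2 against the WT they were -2.05, -2.13 and -2.39. In M3 they were -3.27, -3.86 and -3.90, and in M4 they were 0.39, 0.33 and -0.04. The standard errors of these values, from a spread shared by all groups, were 0.25, 0.23 and 0.30 for the 3 genes in this order. In M1 the median over the 3 genes was -1.12, in M2 it was -2.13, in M3 -3.86 and in M4 0.33, beside medians over all tested genes of 0.01, 0.00, 0.01 and -0.01 in the same lines.

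Ordered from the most negative value among the 9440 tested genes, NO10G00370, NO10G00380 and NO10G00390 held places 19, 11 and 10 in M3, places 117, 110 and 79 in M2 and places 227, 213 and 220 in M1. Between clones, the log2-fold changes of the 3 genes were -0.95, -1.0 and -1.27 in M2 against M1, and 3.66, 4.19 and 3.86 in M4 against M3.

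A gene is called differentially expressed (a DEG) where limma gives an adjusted p of at most 0.001 and a change of more than 2-fold. The fold is taken from the log2-fold change of value + 1, not from the plain ratio of levels. All 3 genes are among the lower DEGs of M3, which make up 0.0318% of the tested genes. These number 3 in all in this fit, so no other gene passed both thresholds as lower in M3. Yet the 3 genes held places 19, 11 and 10 from the most negative change, so some genes with more negative changes did not pass. The study's own test, on read counts, listed more DEGs over M3 and M4 together. All 3 are also among the lower DEGs of M2 (2.14% of the tested genes) and among the genes higher in M4 than in M3 by the same rule (0.053%). None of them is a DEG in M1, where lower DEGs make up 0.0212% of tested genes, or in M2 against M1 (lower DEGs 1.19%). Nor is any of them in M4 against the WT, where no gene is a DEG in this fit. At an adjusted p under 0.05 alone, 1 of the 3 was called lower in M1 (background 1.13%), 3 in M2 (18.2%), 3 in M3 (0.339%) and 3 in M2 against M1 (14.1%), 3 were called higher in M4 against M3 (11.8%), and none was called in M4 against the WT (background 5.33% in either direction). These calls restate the choice of the genes and are not evidence for it. They also come from a fit with the spread pooled over 5 groups. In fits to only the 6 libraries compared, the number of the 3 genes that are DEGs was 1 in M2, 0 in M3 and 0 in M4 against M3. What caused this was not tested.

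Replicates differed more in the 3 genes than they did in most well-expressed genes in every group, except for NO10G00370 in M4. In M1 NO10G00370 had a ratio of the highest to the lowest M1 library of 2.26, against 1.91 for NO10G00380 and 1.60 for NO10G00390. On the log2 scale the SD among M1 libraries was 0.59, 0.46 and 0.35 for the 3 genes, while the median SD in M1 was 0.13 over 2448 genes with a mean of at least 100. Of these genes, 96.5%, 95.0% and 90.8% had a smaller SD than the 3 genes in M1. The SD in M3 was 0.34, 0.39 and 0.47 for NO10G00370, NO10G00380 and NO10G00390, above 90.6%, 92.4% and 94.4% of these genes. In M2 it was 0.21, 0.11 and 0.37, above 90.6%, 66.3% and 95.8%. In the WT it was 0.22, 0.25 and 0.23, above 85.6%, 88.9% and 87.1%. In all 3 genes replicate 1 of M1 was highest and replicate 3 lowest. Without 1 library, the log2-fold change of NO10G00370 in M1 ranged from -1.37 to -0.79. In M4, by contrast, NO10G00370 had an SD of only 0.04, which was larger than that of 10.8% of these genes, while NO10G00390 had an SD of 0.50, with replicate 2 at 488.3 TMM-normalized TPM, below the other libraries of M4.

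The 3 genes moved together across libraries. Over the 15 libraries Pearson's r of the log2 values was 0.994 between NO10G00370 and NO10G00380, 0.967 between NO10G00370 and NO10G00390 and 0.977 between NO10G00380 and NO10G00390. These points fall into 5 groups and share their library, and the first pair also overlaps in position, so r is given as a description. After the group means were removed, r was 0.954 for NO10G00370 and NO10G00380, 0.423 for NO10G00370 and NO10G00390 and 0.519 for NO10G00380 and NO10G00390. Within groups the overlapping pair thus varied together more closely than either gene did with NO10G00390, which overlaps neither. Sharing of reads between the genes was not examined, and a part of the overlap in these values was not tested.

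The size of the shift differed somewhat between the genes. The ratio of NO10G00380 to NO10G00370 was 1.68, 1.75 and 1.98 in the libraries of M1, 1.69, 1.90 and 1.65 in M2 and 1.68, 1.66 and 1.97 in M4, against 1.77, 1.84 and 1.92 in the WT. In M3 it was 1.28, 1.23 and 1.19, below every other library. As means this is 1.23 ± 0.0434 in M3 and 1.85 ± 0.0764 in the WT (SD, n = 3 each). The ratio of NO10G00390 to NO10G00370 varied more within groups, with 1.96 ± 0.331 in M1 and 1.61 ± 0.507 in M2, and with 1.32 ± 0.422 in M3 and 1.52 ± 0.513 in M4, against 1.96 ± 0.0186 in the WT, and its lowest value, 0.917, was in M3. The part of the bases that NO10G00370 shares with NO10G00360 and NO10G00380 in these ratios was not tested.

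**Figure D3:**
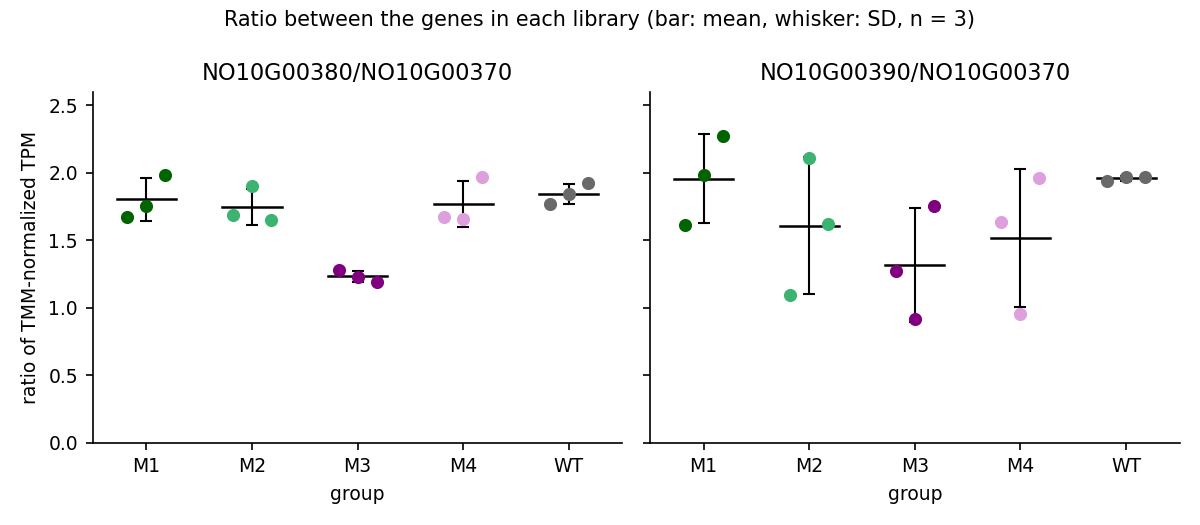
Ratio of NO10G00380 to NO10G00370 and of NO10G00390 to NO10G00370 in each library of M1, M2, M3, M4 and the WT, with points for libraries and bars for the mean ± SD of a group. The first ratio is 1.19 to 1.28 in M3 and at least 1.65 in every other library, and the second ranges from 0.917 to 2.28.

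The WT means were 9.77, 14.5 and 14.8 times the M3 means for NO10G00370, NO10G00380 and NO10G00390. The values do not lie near the limit of detection. The mean read depth over the gene, the coverage in the tables of the single libraries, was 63.5 to 1105 for NO10G00370, 75.6 to 2080 for NO10G00380 and 74.6 to 2071 for NO10G00390. Counts of reads were not used here, so no counting error can be given. Dividing coverage by FPKM gives each library's relative depth, which lay between 4.69 and 6.17 with a median of 5.26, so the libraries were of similar depth. The transcript levels of the knocked-out genes give no check of the genotype, since Cas9 editing changes the DNA and need not lower the transcript. NO08G00280 had 5.94 to 11.0 TMM-normalized TPM in M1 and 6.74 to 7.64 in M2, against 6.70 to 9.57 in the WT, and was not called in either line. NO06G02500 had 69.0 to 76.7 in M3 and 54.5 to 58.1 in M4, against 55.3 to 58.8 in the WT, with a log2-fold change of 0.34 in M3 (limma, adjusted p = 0.0435) and -0.02 in M4 (adjusted p = 0.936). It differed by -0.35 in M4 against M3 (adjusted p = 0.00393). The rise was not particular to M3, since M2, a line of the other knockout, had 0.23 (adjusted p = 0.022), while M1 had 0.16 (adjusted p = 0.247).

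In M1, M2 and M3 none of the nearest genes had as low a log2-fold change as the 3 genes between them. The 10 nearest are NO10G00320 to NO10G00360 on the left and NO10G00400 to NO10G00440 on the right, and all 10 were tested, with p-values adjusted over all 9440 genes. In M3, where the 3 genes were at 6.74% to 10.2% of the WT, the log2-fold changes of the 10 neighbours lay between -0.33 and 0.59 (median 0.01), and limma called none of them, with 1 at an unadjusted p under 0.05 (background of calls 0.985%). In M1 they lay between -0.33 and 0.57 (median -0.11), with 0 called and 0 at an unadjusted p under 0.05 (background 1.73%). In M4 they lay between -0.30 and 0.76 (median 0.02), with 0 called and 3 at an unadjusted p under 0.05 (background 5.33%). In M2 they lay between -0.39 and 0.88 (median -0.14), and 3 of 10 were called, near the 34.7% of all tested genes called in that line.

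The genes called in M2 moved in both directions and by less than the 3 genes between them. NO10G00350 had 53.2, 48.8 and 51.8 TMM-normalized TPM in M2, against 41.4, 39.4 and 37.1 in the WT, a difference of 0.38 on the log2 scale (limma adjusted p = 0.00941, SE 0.09). NO10G00430 had 26.18, 24.98 and 23.0 in M2, against 32.7, 33.3 and 32.0 in the WT, a difference of -0.39 on the log2 scale (adjusted p = 0.0138, SE 0.11). NO10G00400, the nearest gene on the right, had 43.1, 48.4 and 44.1 in M2, against 32.2, 32.7 and 13.2 in the WT, a difference of 0.88 on the log2 scale (adjusted p = 0.0395, SE 0.30). Without replicate 3 of the WT, which stands apart in this gene, the change of NO10G00400 was 0.46 and was no longer called (adjusted p = 0.118). Neither NO10G00350, NO10G00400 nor NO10G00430 is a DEG.

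NO10G00360 is the nearest gene on the left and shares 1359 bases with NO10G00370. It had 11.9, 15.6 and 14.5 TMM-normalized TPM in M1, 11.5, 10.9 and 12.9 in M2, 16.3, 12.4 and 11.5 in M3 and 15.3, 15.0 and 15.6 in M4, against 15.5, 14.1 and 14.9 in the WT. In M3 its log2-fold change was -0.15 (SE 0.14, limma adjusted p = 0.577) and in M2 it was -0.31 (adjusted p = 0.0945), while M1 had -0.08 (adjusted p = 0.802) and M4 had 0.04 (adjusted p = 0.905), and none of these was called. Without replicate 1 of M3, the change in M2 was called at -0.31 (adjusted p = 0.0450). On the other side, NO10G00400 had 37.2, 32.2 and 41.7 in M3, where NO10G00390 was at its lowest, and its change in M3 was not called (adjusted p = 0.29).

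The same contrast can be followed in single libraries. The median over the 3 genes of the difference from the WT mean, on the log2 scale, was -0.69, -1.03 and -1.61 in the libraries of M1, -2.10, -2.25 and -2.05 in M2, -3.44, -3.93 and -3.74 in M3 and 0.23, 0.29 and 0.37 in M4, against -0.21, 0.24 and -0.03 in the WT. The same median over the 10 neighbours stayed between -0.26 and 0.11 in all 15 libraries. Pearson's r of a neighbour with the mean of the 3 genes over the 15 libraries ranged from -0.44 to 0.52.

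**Figure D4:**
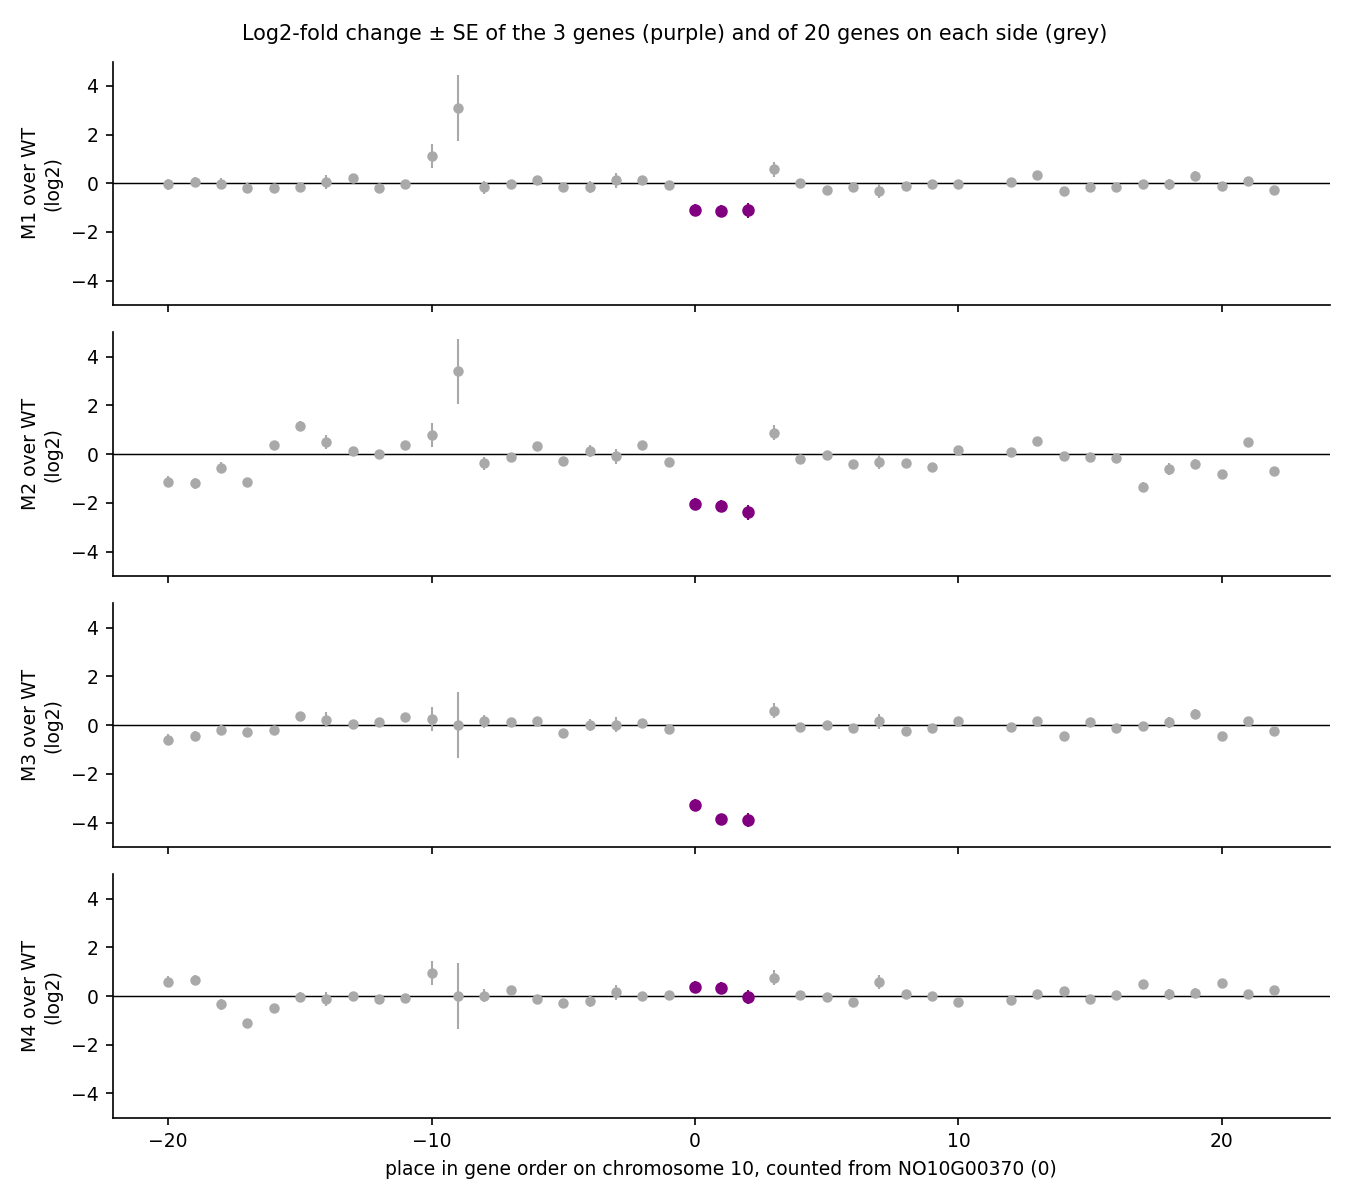
Log2-fold change against the WT in M1, M2, M3 and M4 of NO10G00370, NO10G00380, NO10G00390 and of the 20 genes on each side that were tested, in gene order along chromosome 10, with error bars for the standard error of the fit. The 3 genes lie between -3.90 and -3.27 in M3, while the 10 nearest genes stay between -0.33 and 0.59, and the high points at NO10G00280 in M1 and M2 were not called.

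Over a wider stretch of 20 genes on each side, 39 of 40 genes were tested, and NO10G00480 was listed at 0. limma called 0 of the 39 in M1 (6 at an unadjusted p under 0.05, background of calls 1.73%), 0 in M3 (7 at an unadjusted p under 0.05, background 0.985%), and 1 lower and 0 higher in M4 (12 at an unadjusted p under 0.05, background 5.33%). In M2 it called 9 lower and 8 higher (23 at an unadjusted p under 0.05), beside 18.2% lower and 16.5% higher over all tested genes. In M1 the median over the 39 genes was -0.04, in M2 it was -0.11, in M3 it was 0.02 and in M4 it was 0.02, beside medians over all tested genes of at most 0.01 in size. NO10G00280 (99683 to 100267) had 20.6 and 27.4 TMM-normalized TPM in replicates 2 and 3 of M1 and 33.5 and 33.0 in those of M2, was listed at 0 in replicate 1 of both lines and in all libraries of M3, M4 and the WT, and was not called. It was singled out after its values were seen. In M4 against M3 limma called 4 of the 39 lower and 6 higher, beside 13.9% and 11.8% of all tested genes. Of these 6, NO10G00170, NO10G00180 and NO10G00570 had log2-fold changes of 1.19, 1.12 and 0.98. Against the WT they had -1.13, -1.2 and -0.82 in M2, -0.6, -0.46 and -0.45 in M3 and 0.59, 0.66 and 0.53 in M4. Only the changes in M2 were called, and M1 had -0.04, 0.06 and -0.12. They too were picked after their values were seen.

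Of the 39 genes, 2 were lower DEGs and 1 was a higher DEG in M2, where lower DEGs make up 2.14% and higher DEGs 0.964% of all tested genes. None was a DEG in M1, M3 or M4, lines with 3, 5 and 0 DEGs in all. NO10G00200, described as rotamase cyclophilin 2, a protein-folding enzyme that isomerizes proline bonds (+ strand, 65613 to 71810), had 17.6, 19.1 and 20.1 TMM-normalized TPM in M2 and 19.6, 17.3 and 20.8 in M4, against 47.2, 43.1 and 38.2 in the WT. It fell by 1.14 on the log2 scale in M2 (SE 0.17, limma adjusted p = 3.92e-04) and by 1.12 in M4 (adjusted p = 0.00784), with no call in M1 (log2-fold change -0.18) or M3 (-0.30). It overlaps NO10G00190 in position. Its order of groups is thus not that of the 3 genes, in which the M4 mean was 100.4% to 130.3% of the WT mean.

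NO10G00540 (- strand, 184195 to 185898), with no description, had 28.2, 37.97 and 37.4 TMM-normalized TPM in M2, against 98.5, 82.4 and 83.03 in the WT, a difference of -1.33 on the log2 scale (limma adjusted p = 1.83e-04, SE 0.17). NO10G00220 (+ strand, 74583 to 78974), also with no description, was higher, with 12.1, 14.2 and 8.74 in M2, against 3.81, 5.02 and 4.91 in the WT, a difference of 1.17 on the log2 scale (adjusted p = 7.49e-04, SE 0.19). Neither was called in M1, M3 or M4.

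To place the stretch in the genome, the median log2-fold change was taken over every window of 3 tested genes adjacent on a nuclear chromosome, 7823 in all. Of these, 7818 share no gene with the window of NO10G00370 to NO10G00390. Set among those 7818, the window of the 3 genes, with a median of -3.86, was the lowest in M3, and the next was NO14G03120-NO14G03140 with -2.31. In M2 it held place 5 from the lowest, and the lowest was NO16G02280-NO16G02300 with -3.51. In M1 it held place 16, and the lowest was NO07G04410-NO07G04430 with -2.14. In M4 against the WT it held place 372 from the highest. In M4 against M3 it was the highest, with 3.86, and the next was NO09G03000-NO09G03020 with 2.90. Among all 7823 windows, the number whose 3 genes are all DEGs was 1 in M3 and 2 in M2, and M1 and M4 had 0. The window of the 3 genes is itself the 1 in M3 and is 1 of the 2 in M2. The 3 genes were chosen with these changes known, so the places are a description and were not tested.

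**Figure D5:**
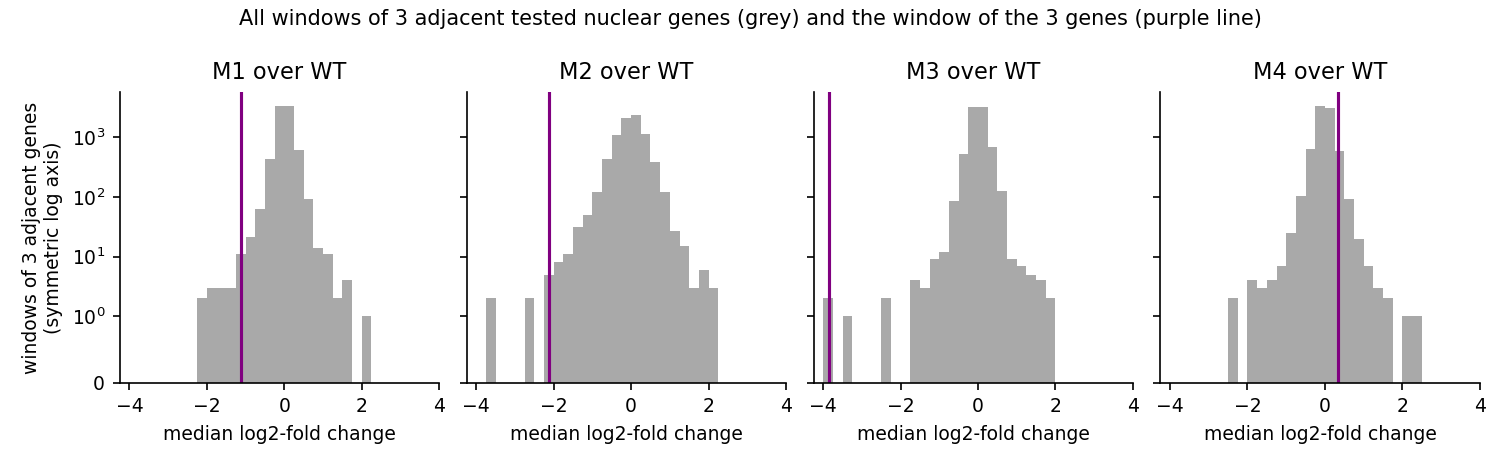
Number of windows of 3 adjacent tested genes (log axis above 1) by their median log2-fold change against the WT in M1, M2, M3 and M4, with a line at the window of NO10G00370 to NO10G00390. The line stands at -1.12, -2.13, -3.86 and 0.33 in M1, M2, M3 and M4, and the bars beside it in M3 are windows that share some of the 3 genes.

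The genes whose levels were most like the mean of the 3 genes, by Pearson's r of the log2 values over the 15 libraries, were NO07G03240 (r = 0.930), NO10G03380 (0.927), NO15G01010 (0.913), NO20G00790 (0.905) and NO05G03260 (0.897). Of 9437 other tested genes, 4 had an r of at least 0.9, and 121 had an r of at least 0.8. These points are libraries in 5 groups, and an r over them says nothing of size. NO10G03380 lies on the same chromosome from 954315 to 955133, far from the 3 genes. It had 385.4, 360.0 and 264.3 TMM-normalized TPM in M1, 234.8, 242.0 and 291.2 in M2, 274.0, 226.3 and 223.0 in M3 and 425.5, 451.9 and 475.9 in M4, against 347.4, 425.0 and 389.1 in the WT.

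The changes of these like genes were smaller than those of the 3 genes. In M3 the log2-fold changes were -0.48 for NO07G03240, -0.68 for NO10G03380, -0.41 for NO15G01010, -0.44 for NO20G00790 and -0.31 for NO05G03260. The genes with the most negative r were NO19G00660 (-0.952) and NO17G00730 (-0.951), with log2-fold changes of 0.59 and 0.86 in M3. None of the 5 stayed among the 5 most alike when the libraries of M3 were left out. Their r was then 0.834 to 0.948, at places 203 to 989, since many other genes had a higher r. The r of the 10 neighbours was at most 0.52.

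Since NO10G00370 carries a folate description, 6 genes described as enzymes of purine synthesis, of glycine and serine metabolism or as methyltransferases were set beside it. None of them is described as an enzyme that acts on folate. They were picked by description from the study's own list of DEGs, which was made from these libraries, so a count of calls among them is fixed in part by that choice. In M3, where NO10G00370 was lowest, limma called 0 of 6 (2 at an unadjusted p under 0.05, median log2-fold change 0.28), beside 0.985% of all tested genes. It called 0 of 6 in M1 (0 at an unadjusted p under 0.05, median 0.05), beside 1.73%, and 0 of 6 in M4 (1 at an unadjusted p under 0.05, median 0.08), beside 5.33%. In M2 it called 2 lower and 4 higher (median 0.89), and nothing is read from this count, given how the genes were picked.

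In M2 the lower genes were NO02G00100, described as alanine:glyoxylate aminotransferase 3, which makes glycine from glyoxylate, and NO03G03620, described as the amidotransferase of the first step of purine synthesis. NO02G00100 had 26.3, 22.7 and 28.6 TMM-normalized TPM in M2, against 120.6, 161.1 and 139.5 in the WT, a difference of -2.39 on the log2 scale (limma adjusted p = 9.6e-06, SE 0.19), and was the DEG among the 6. Its change was not called in M3 (-0.43, adjusted p = 0.238). NO03G03620 fell by 1.18 on the log2 scale in M2 (SE 0.40, adjusted p = 0.0394).

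The higher genes in M2 included NO05G01080, described as glycinamide ribonucleotide synthetase, another enzyme of purine synthesis. It had 22.4, 22.3 and 19.1 TMM-normalized TPM in M2 and 15.7, 15.1 and 15.5 in M3, against 11.7, 10.4 and 8.51 in the WT, with a log2-fold change of 1.00 in M2 (SE 0.14, limma adjusted p = 3.54e-04) and of 0.56 in M3 (adjusted p = 0.0825). NO23G00600, described as serine racemase, rose by 1.01 in M2 (adjusted p = 0.0183). NO07G00840 and NO16G01660, both described as methyltransferases, rose by 0.79 (adjusted p = 0.0224) and 1.08 (adjusted p = 0.00691).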

How the data were processed

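RNA-seq libraries of 15 cultures were analysed; the other data of the study were not analysed here. Per the study's methods, reads were aligned with STAR in the nf-core/rnaseq pipeline and a matrix was made with Trinity, RSEM2 and TMM normalization. The signal in the matrix that the authors deposited is TMM-normalized TPM. The TPM, FPKM and coverage that the authors deposited for each library come from StringTie, and the matrix equals that TPM times 1 factor per library (0.947 to 1.05).

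Genes with a mean of at least 1 (9440) went into a limma fit (version 3.58.1, R 4.3.3) of log2(value + 1), a scale that understates the change of low genes. The fit had 1 mean per group and let the variance depend on the mean, and p-values were adjusted by Benjamini-Hochberg. The study's methods name a test on read counts, which were not used here. The procedure was tested on simulated data. Tables and figures were made with numpy 2.4.6, pandas 2.3.3 and matplotlib 3.10.9 under Python 3.11.15.

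The 3 genes and all lists were chosen with earlier results of these data known. Genes named are the 3 genes, 5 genes on each side, DEGs among 20 on each side, the 5 most and 2 least alike by Pearson's r, 6 genes of purine synthesis, glycine and serine metabolism and methyl transfer and the knocked-out genes. NO10G00170, NO10G00180, NO10G00280 and NO10G00570 were added after their values were seen, and so were the windows named for the lowest or highest median. Descriptions come from a supplementary list of the study. Alternatives were other pseudocounts, filters and normalizations, fits of only 2 groups, a replicate block, no variance trend, no organelle genes and leaving out each of the 15 libraries. The study calls its replicates biological without saying how the cultures were separated, so p-values measure the spread between these samples.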

Additional observations from a re-analysis of the deposited data

Results flagged for a closer look

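In NO10G00370 and NO10G00380 the clones of the NO06G02500 knockout lay on opposite sides of the WT mean. Every M3 library lay below it and every M4 library above it. In M4 against the WT neither gene was called, with log2-fold changes of 0.39 (SE 0.25) and 0.33 (SE 0.23). The libraries of M4 and the WT overlapped in NO10G00380. The differences between M4 and M3 were 3.66 for NO10G00370 and 4.19 for NO10G00380 on the log2 scale, and limma calls both. The genes were chosen from these values, so these calls are no independent test of a difference between the clones, which was not tested otherwise. In NO10G00390, M4 lay on both sides of the WT mean.

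Other named genes differed between clones of 1 knockout by limma's test of that difference. Most were named because they are DEGs in M2 or stand in the study's list of DEGs, and the comparison of M2 with M1 uses the same M2 libraries, so the p-values are not independent of the choice. Among genes of the wider stretch, NO10G00200 had a log2-fold change of -0.95 in M2 against M1 (adjusted p = 0.00202) and of -0.82 in M4 against M3 (adjusted p = 0.00542). In M2 against M1, NO10G00220 differed by 1.34 (adjusted p = 6.22e-04) and NO10G00540 by -1.29 (adjusted p = 4.73e-04). NO10G00170, NO10G00180 and NO10G00570 differed there by -1.09, -1.26 and -0.7 (adjusted p = 0.00505, 0.00154 and 0.0129). Among the genes of purine, glycine and serine metabolism, NO02G00100 differed by -2.10 in M2 against M1 (adjusted p = 4.5e-05) and by 0.94 in M4 against M3 (adjusted p = 0.00569), NO05G01080 by 0.77 in M2 against M1 (adjusted p = 0.00298) and NO23G00600 by 1.15 in M2 against M1 (adjusted p = 0.0135). Such calls between clones were common, at 25.9% of all tested genes in M2 against M1 and 25.6% in M4 against M3.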

How the results depend on the processing

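Over all alternatives, the log2-fold changes of NO10G00370, NO10G00380 and NO10G00390 stayed between -4.09 and -3.12 in M3, between -2.50 and -1.93 in M2 and between -1.37 and -0.79 in M1, while in M4 that of NO10G00390 changed sign (-0.24 to 0.24). Quantile normalization gave a median over the 3 genes of -1.99 in M2 and 0.45 in M4, and leaving out single libraries gave -2.26 to -2.01 in M2 and 0.20 to 0.45 in M4.

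Counts of calls depended on the settings, and the cause was not tested. In fits of only the 2 groups compared, which estimate the spread from 6 libraries, the number of the 3 genes that are DEGs was 1 in M2, 0 in M3 and 0 in M4 against M3, instead of 3. The genes called at an adjusted p under 0.05 were then 21 in M1 (163 in the fit of 15 libraries), 10 in M3 (93), 129 in M4 (503) and 1512 in M4 against M3 (2421), and the DEGs 72 in M2 (293), 2 in M3 (5), 2 in M4 (0) and 2 in M2 against M1 (142). Over all tested genes, same-numbered replicates did not deviate together (r -0.074 to 0.087 over 30 pairs of samples, 0 over 0.1). Such an r cannot show a pairing that moves only some genes. With the replicate block, genes called were 64 in M1, 17 in M3 and 322 in M4, and DEGs 76 in M2 against M1 and 6 in M4 against M3 (10), and it changed no call of a named neighbour. DEGs in M4 were 2 with a pseudocount of 5 and 1 with StringTie TPM. DEGs in M1 (3) were 5 with no filter and 5 with no variance trend. Genes called in M3 were 53 with quantile normalization and 49 with no variance trend.

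Without single libraries, genes called ranged from 28 to 254 in M1, 10 to 452 in M3, 78 to 650 in M4, 1512 to 2768 in M2 against M1 and 1392 to 2605 in M4 against M3. DEGs ranged from 2 to 5 in M1, 182 to 316 in M2, 0 to 3 in M4, 44 to 206 in M2 against M1 and 5 to 56 in M4 against M3, with 56 without M1 replicate 3 and 24 without M1 replicate 1. Near neighbours called in M2 ranged from 1 to 5, with 1 without M2 replicate 3 and 5 without M3 replicate 1. Genes of the wider stretch called ranged from 0 to 1 in M3 and 1 to 2 in M4. NO10G00400 lost its call in M2 also without M2 replicate 1 (adjusted p = 0.0783), 2 (0.102) or 3 (0.0782), without M4 replicate 3 (0.0513) and in the fit of 2 groups (0.112), and NO10G00430 lost its call without M2 replicate 3 (0.0538). NO10G00320 gained a call in M2 without WT replicate 1 (0.0437), M3 replicate 1 (0.0484) or M3 replicate 2 (0.0400), and NO10G00360 without M3 replicate 1 (0.0450). Of 40 changes of the near neighbours against the WT, 13 changed sign without some single library and 5 under another alternative, and 0 of these were called in the fit of 15 libraries. Those that moved by at least 1 standard error were NO10G00330 in M1 (-0.33 to 0.18), NO10G00350 in M3 (-0.02 to 0.15) and NO10G00410 in M3 (-0.14 to 0.03). Of the 5 genes most alike, 1 stayed with Spearman's rho, 0 without the libraries of M3 and 1 with deviations from group means. With StringTie TPM the 5 held places 1, 2, 3, 4 and 7. Without read counts, the precision that depth gives to single values is unknown.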
